A study of Mus musculus with 9 samples.

Results

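Cdkn1a and 9 further genes known as transcriptional targets of the p53 protein were followed in erythroblasts (nucleated red cell precursors) of mice on normal or low iron diet. The genes were taken by name (Cdkn1a, Btg2, Mdm2, Ccng1, Phlda3, Sesn1, Zmat3, Aen, Bax and Bbc3), with every array probe whose RefSeq accession maps to them. They made up 10 of the 20018 genes and 12 of the 26413 probes that could be named. Cdkn1a and Aen had 2 probes each and the others 1, and all 12 probes were well above background on all 9 arrays. Of all named genes, 14506 were bright enough to be tested.

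There were 3 groups of 3 arrays: mice kept on normal diet, and mice given low iron food after weaning for 3 or for 7 weeks. All samples were wild-type C57BL/6J mice labelled female, and the RNA was that of Subset II erythroblasts sorted from the marrow. The age of the normal diet mice, the iron content of the diets and whether a sample was 1 mouse or a pool are not given in the sources used here. The samples of a group are described as biological replicates, and the p-values reflect how far such samples of a group lay apart.

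p53 is a transcription factor that is switched on by DNA damage, nucleolar stress, lack of oxygen and other strain, mostly through the stability of its protein and much less through the amount of its mRNA. Its target genes fall into those that hold the cell cycle (Cdkn1a, Btg2), those that shut p53 off again (Mdm2, Ccng1), those that damp growth signalling (Phlda3, Sesn1), the RNA-binding Zmat3, and those that promote cell death (Aen, Bax, Bbc3). In the erythroid lineage, unrestrained p53 is best known from failures of ribosome assembly, in which it stops red cell production. Many of these genes, Cdkn1a above all, also answer to cytokines and other factors without p53.

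The promoters of the genes were searched for the 10-base p53 consensus decamer, of which a p53 binding site holds a pair, since the genes were grouped for that factor. RefSeq start sites of GRCm38.p6 gave 14 windows for 9 of the 10 genes, each from 250 bases before to 50 bases after a start. The decamer, on either strand, lay in 7 windows of 6 genes, and in 8.36% of all 32851 such windows. A pair of decamers with a spacer of 0 to 13 bases lay in 0.0731% of all windows (24 of them), and among those of these genes in the upstream Cdkn1a window alone. The 250 bases before the start are shown for Cdkn1a and, as single-decamer cases, for Mdm2 and Bax, with decamers in capitals.
Cdkn1a, upstream start, chr17:29090729-29090978, plus strand: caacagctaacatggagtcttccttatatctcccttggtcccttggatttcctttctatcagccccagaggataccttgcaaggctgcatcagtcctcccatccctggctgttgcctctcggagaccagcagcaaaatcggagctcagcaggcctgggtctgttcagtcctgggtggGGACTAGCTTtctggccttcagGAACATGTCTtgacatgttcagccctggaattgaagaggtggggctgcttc
Mdm2, chr10:117710759-117711008, minus strand: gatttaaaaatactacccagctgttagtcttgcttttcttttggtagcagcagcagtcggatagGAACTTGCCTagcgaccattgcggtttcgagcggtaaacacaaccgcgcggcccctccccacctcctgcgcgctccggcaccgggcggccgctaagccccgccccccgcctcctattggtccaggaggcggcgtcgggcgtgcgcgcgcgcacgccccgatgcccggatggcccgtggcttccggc
Bax, chr7:45466899-45467148, minus strand: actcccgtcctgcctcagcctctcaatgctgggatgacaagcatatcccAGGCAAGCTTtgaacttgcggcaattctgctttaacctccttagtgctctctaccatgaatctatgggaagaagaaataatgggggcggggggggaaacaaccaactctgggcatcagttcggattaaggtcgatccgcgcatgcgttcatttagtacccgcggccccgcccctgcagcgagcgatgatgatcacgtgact

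In the Cdkn1a window the decamers GGACTAGCTT and GAACATGTCT began at -73 and -51 from the start, with a spacer of 12 bases. The latter opens the stretch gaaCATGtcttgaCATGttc, at chr17:29090928-29090947, whose second decamer has 1 mismatch to the consensus. Its paired CATG cores (in capitals; searched as CATGNNNNNNCATG) occur in 0.712% of all windows. The downstream Cdkn1a start, for which chr17:29093519-29093768 was searched before it, had no decamer. Among the others, Ccng1 had GGGCAAGCCT at -185, Mdm2 GAACTTGCCT at -186, Bax AGGCAAGCTT at -201 and the downstream start of Sesn1 AAGCTTGTTT at -173. The overlapping windows of Aen shared GGGCTTGTCC, at 10 bases past its first start. Btg2, Phlda3 and Bbc3 had no such letters in their windows. A match describes the letters and does not show that p53 was bound.

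Levels below are log2 signal relative to the array's 75th percentile of signal, so that 0 is a probe as bright as that percentile and a difference of 1 is a doubling. Levels of different probes cannot be set against each other, so each gene is compared only with itself. Changes are log2 differences ± the standard error of limma, with p-values adjusted by Benjamini-Hochberg over all genes tested and a threshold of 0.05. "Rose" and "fell" are written only of changes past it.

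Several properties of the arrays touch all results. The 75th percentile of signal was 1499 to 1616 on normal diet, 1677 to 1837 at 3 weeks and 791.7 to 1087 at 7 weeks. Spots well above background made up 65.5% to 66.3%, 56.8% to 70.8% and 45.2% to 53.6%. Spike-in RNAs, on the same scale as the genes, averaged 1.06 ± 0.63 (SD, n = 3), 1.29 ± 0.23 and 4.96 ± 0.47. The part of the dimmer 7 week arrays in the changes below was not tested, and without any scaling between arrays the median of all genes moved from -0.26 to -1.07 at 7 weeks against normal diet. Each group lay on its own slide and in its own scan, so slide and diet cannot be told apart. Normal diet replicates 1 and 2 went against their female label: Y-linked Eif2s3y was at 5.12 and 4.82 there and at -3.77 on replicate 3, and Xist was at -5.59, -5.24 and -0.73. On replicate 3 Eif2s3y was dim but still well above background, while it was so on 0 arrays at 3 or at 7 weeks. Because of replicates 1 and 2, calls of the 10 genes at 7 weeks against normal diet are also given with replicate 3 as sole control. For other genes of the p53 pathway, apart from Trp53, that fit is given only as counts, near the end.

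The sorted cells carried the erythroid label in their markers. All 12 erythroid markers, among them the globin genes Hba-a1 and Hbb-bt and the transcription factor gene Gata1, were well above background on all 9 arrays. Their summed level, as log2, was 11.1 to 11.2, 11 to 11.1 and 11.5 to 12.1 in the 3 groups. Of markers of other marrow cells, the 7 monocyte and macrophage genes summed to 4.94 to 5.57 on normal diet, 5.91 to 6.41 at 3 weeks (3 rose) and 4.04 to 4.07 at 7 weeks (3 fell; 6 fell from 3 to 7 weeks). The 5 mast cell, basophil and eosinophil genes summed to 3.73 to 4.57, -0.82 to 4.61 and -0.95 to -0.60, with 3 of them below background on every 7 week array (2 fell, and 1 from 3 to 7 weeks). The 9 neutrophil genes summed to 7.73 to 9.20 over the 9 arrays. Of them Mmp9 and Ngp rose at 3 weeks (3.52 and 2.98), 1 rose at 7 weeks, and 2 rose and 3 fell from 3 to 7 weeks. The 6 B lineage genes summed to 2.10 to 2.80, 3.20 to 4.48 and 1.78 to 3.24; 2 rose at 3 weeks, 1 rose and 1 fell at 7 weeks, and 1 rose and 2 fell between these times. The 6 T and NK cell genes summed to 4.15 to 4.33, 4.14 to 4.59 and 4.47 to 5.25, and 1 rose at 7 weeks and 1 from 3 to 7 weeks. The 5 megakaryocyte genes summed to 4.16 to 5.67, 4.39 to 6.02 and 2.61 to 5.28, and 1 fell at 7 weeks and 1 from 3 to 7 weeks. The part of such cells in the values of the p53 targets was not tested, and fewer cells of a type and less RNA per cell cannot be told apart in bulk RNA.

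Cdkn1a encodes p21, the inhibitor that binds cyclin-dependent kinases and halts the cycle. Its brighter probe was at -1.87, -1.99 and -2.84 on normal diet, at 1.30, 2.50 and -1.95 at 3 weeks, and at 5.10, 3.14 and 4.62 at 7 weeks. The 7 week arrays all lay above all others. At 3 weeks replicates 1 and 2 lay far above normal diet, while replicate 3 lay within it. The SD of 2.30 over the 3 week arrays was larger than that of 99.8% of all genes, whose median SD there was 0.323.

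From a mean of -2.23 ± 0.53 (SD, n = 3) on normal diet, Cdkn1a rose at 7 weeks to 4.29 ± 1.02, by 6.52 ± 1.01 or 91.7-fold (limma, adjusted p = 0.00384). Before any scaling the difference was 5.71. The call held without each array in turn (6.11 to 7.09), and ended with normal diet replicate 3 as sole control, with a like value (7.13, adjusted p = 0.0916). In that fit limma called 1 gene of all those tested, and 3047 had an unadjusted p under 0.05. At 3 weeks the mean was 0.62 ± 2.30, and the difference of 2.85 ± 1.01 did not pass (limma, adjusted p = 0.0980). Without 3 week replicate 3 it was 4.13 (limma, adjusted p = 0.0246), and weighting the arrays by quality gave 3.10 (adjusted p = 0.0180). Between 3 and 7 weeks of low iron Cdkn1a rose by 3.67 ± 1.01 (limma, adjusted p = 0.0199). That step was 2.39 without 3 week replicate 3, with the call kept, and 3.51 without 7 week replicate 3 (adjusted p = 0.0501).

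The dimmer Cdkn1a probe, which stands for another RefSeq transcript of the gene, showed the same order of groups by their means. It was at -4.30, -3.52 and -4.21 on normal diet, at -2.73, -1.03 and -3.0 at 3 weeks, and at 2.45, -2.23 and 1.40 at 7 weeks. Here all 3 week arrays lay above normal diet, and 7 week replicate 2 lay among the 3 week arrays. In the fit over all probes, which called 30.3% of them in this comparison, it rose by 4.55 ± 1.06 at 7 weeks against normal diet (limma, adjusted p = 0.0147). The 3 week difference of 1.76 ± 1.06 (adjusted p = 0.297) and the step from 3 to 7 weeks of 2.79 ± 1.06 (adjusted p = 0.0640) did not pass, where 13.2% and 39.6% of all probes were called.

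**Figure D1:**
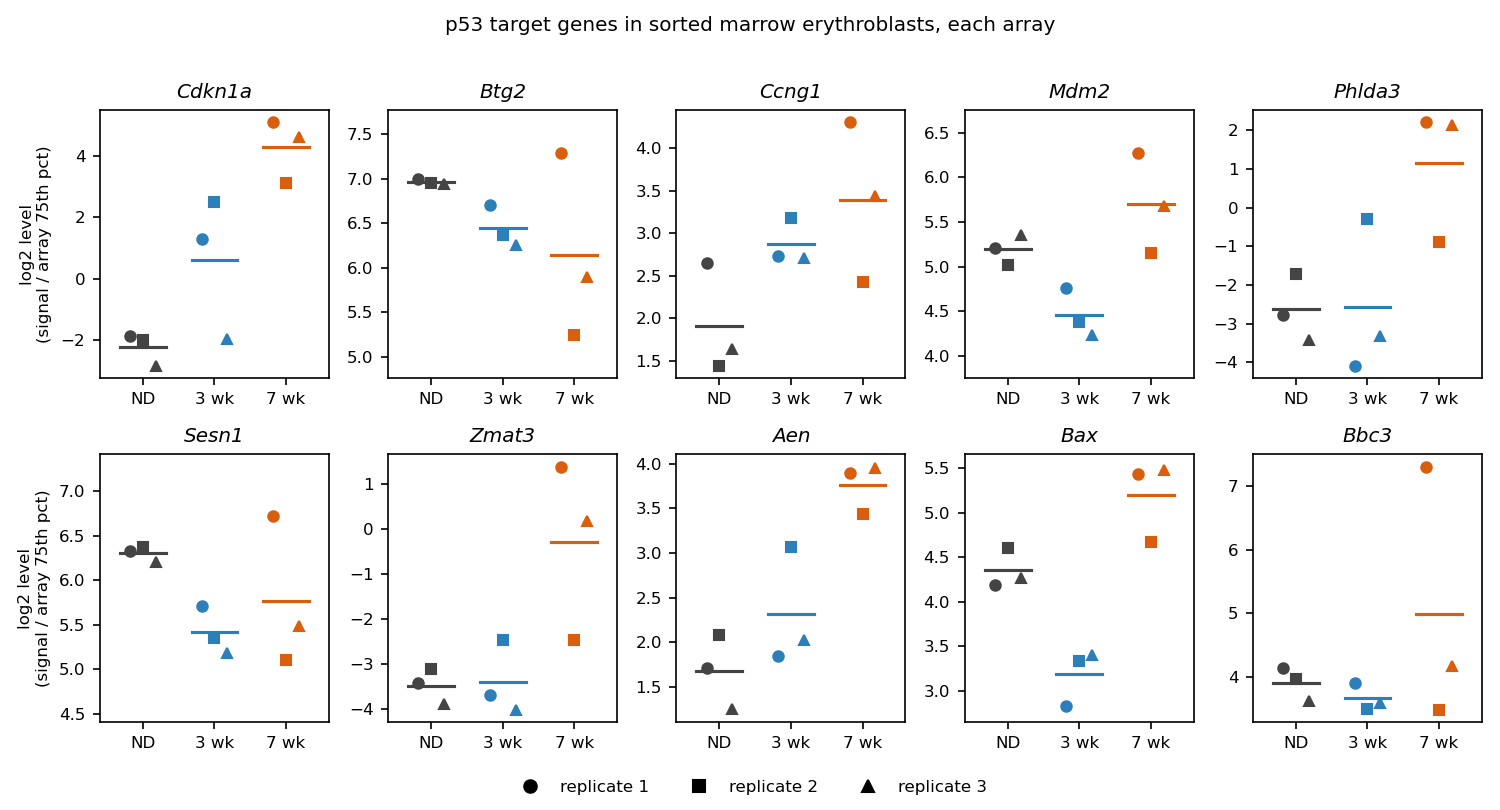
Level of each of the 10 genes on each of the 9 arrays, by its brighter probe where it has 2 (y axis, log2 signal relative to the array's 75th percentile; x axis, group; points, arrays; bars, group means). For Cdkn1a, Aen, Phlda3 and Zmat3 all 3 arrays of 7 weeks lie above normal diet, and Cdkn1a at 3 weeks spans from -1.95 to 2.50.

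Btg2, an antiproliferative gene that p53 and many growth signals induce, was the steadiest of the genes on normal diet. It was at 6.99, 6.95 and 6.94 there, at 6.70, 6.37 and 6.26 at 3 weeks, and at 7.29, 5.24 and 5.89 at 7 weeks. The 3 week arrays lay below normal diet without overlap, while the 7 week arrays spread over both. No comparison passed: -0.52 ± 0.46 at 3 weeks, -0.82 ± 0.46 at 7 weeks and -0.30 ± 0.46 between them (limma, adjusted p = 0.491, 0.204 and 0.635). Without 7 week replicate 1, Btg2 fell at 7 weeks against normal diet (-1.39, limma, adjusted p = 0.00821) and against 3 weeks (-0.88, adjusted p = 0.0325). Without 7 week replicate 2 the latter difference turned to 0.15. Under quantile normalization the 3 week difference turned to 0.20.

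Of the genes that shut p53 off, Mdm2 encodes the ubiquitin ligase that marks p53 for degradation. It was at 5.21, 5.02 and 5.36 on normal diet, at 4.76, 4.38 and 4.24 at 3 weeks, and at 6.27, 5.16 and 5.68 at 7 weeks. The 3 week arrays lay below both other groups, and normal diet and 7 weeks overlapped. Mdm2 rose by 1.24 ± 0.33 from 3 to 7 weeks (limma, adjusted p = 0.0172). Against normal diet it did not pass, at -0.74 ± 0.33 at 3 weeks and 0.51 ± 0.33 at 7 weeks (limma, adjusted p = 0.172 and 0.263). The step from 3 to 7 weeks was 0.28 without scaling between arrays, with the call lost, and 1.20 and 1.13 without 3 week replicates 2 and 3 (limma, adjusted p = 0.0514 and 0.0642). The difference from normal diet at 7 weeks turned to -0.30 without scaling.

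Ccng1 encodes cyclin G1, which recruits a phosphatase that activates Mdm2. It was at 2.65, 1.44 and 1.63 on normal diet, at 2.73, 3.18 and 2.71 at 3 weeks, and at 4.30, 2.43 and 3.44 at 7 weeks. The 3 week arrays lay above normal diet, and 7 week replicate 2 lay below normal diet replicate 1. The differences were 0.97 ± 0.50 at 3 weeks, 1.48 ± 0.50 at 7 weeks and 0.52 ± 0.50 between them, and none passed (limma, adjusted p = 0.229, 0.0511 and 0.441). The 7 week difference passed in 7 of 21 alternatives, among them the one without 7 week replicate 2 (1.96, adjusted p = 0.0203). The difference from 3 to 7 weeks turned to -0.45 without scaling.

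Phlda3 encodes a small lipid-binding protein that keeps the kinase Akt from membranes. It was at -2.78, -1.71 and -3.42 on normal diet, at -4.09, -0.30 and -3.32 at 3 weeks, and at 2.20, -0.88 and 2.13 at 7 weeks. All 7 week arrays lay above normal diet, and 3 week replicate 2 lay above 7 week replicate 2. Its SD of 2.00 at 3 weeks was larger than that of 99.6% of all genes. Phlda3 rose at 7 weeks by 3.79 ± 1.09 against normal diet, or 13.8-fold, and by 3.72 ± 1.09 against 3 weeks (limma, adjusted p = 0.0312 and 0.0262). The 3 week difference was 0.07 ± 1.09 (adjusted p = 0.974) and turned below 0 without normal diet replicate 1 or 3 or 3 week replicate 2 (-0.01, -0.32 and -1.07).

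The Phlda3 call against normal diet ended when normal diet replicate 1 or 3 was left out (3.71 or 3.40, limma, adjusted p = 0.0943 or 0.101). It ended too when 7 week replicate 1 or 3 was left out (3.26 or 3.30, adjusted p = 0.0641 or 0.0750). It also ended with normal diet replicate 3 as sole control (4.57, adjusted p = 0.192). Against 3 weeks the Phlda3 call ended when 3 week replicate 1 or 3 (2.96 or 3.34) or 7 week replicate 1 or 3 (3.19 or 3.23) was left out. Without scaling that step was 2.75 (limma, adjusted p = 0.0601).

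Sesn1 encodes sestrin 1, which restrains the growth kinase complex mTORC1 when amino acids are short. It was at 6.33, 6.37 and 6.21 on normal diet, at 5.71, 5.35 and 5.18 at 3 weeks, and at 6.72, 5.10 and 5.48 at 7 weeks. The 3 week arrays lay below normal diet, and at 7 weeks replicate 1 lay above all other arrays while replicate 2 lay below them. No comparison passed: -0.89 ± 0.40, -0.53 ± 0.40 and 0.35 ± 0.40 for 3 weeks, 7 weeks and the step between them (limma, adjusted p = 0.179, 0.337 and 0.519). Without 7 week replicate 1, Sesn1 fell against normal diet at both times (-0.89, limma, adjusted p = 0.0287, and -1.01, adjusted p = 0.0202), and the step between them turned to -0.12. That step was also below 0 under quantile normalization (-0.18) and without scaling (-0.61).

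Zmat3 encodes a zinc finger protein that binds AU-rich elements in mRNA and guides splicing. It was at -3.42, -3.12 and -3.90 on normal diet, at -3.70, -2.46 and -4.02 at 3 weeks, and at 1.40, -2.46 and 0.18 at 7 weeks. Replicates 1 and 3 at 7 weeks lay far above all other arrays, and replicate 2 lay level with the highest 3 week array. Zmat3 rose at 7 weeks by 3.19 ± 0.86 against normal diet, or 9.12-fold, and by 3.10 ± 0.86 against 3 weeks (limma, adjusted p = 0.0243 and 0.0207). At 3 weeks it was at 0.09 ± 0.86 (adjusted p = 0.957), and at -0.12 and -0.38 without normal diet replicate 3 and 3 week replicate 2.

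The Zmat3 call against normal diet ended without normal diet replicates 1 and 3 (3.22 and 2.98, limma, adjusted p = 0.0740 and 0.0799), without 7 week replicate 3 (2.95, adjusted p = 0.0550) and with normal diet replicate 3 as sole control (3.61, adjusted p = 0.201). Against 3 weeks the Zmat3 call ended without 3 week replicates 1 and 3 (2.94 and 2.78), without 7 week replicate 3 (2.86) and without scaling (2.13, adjusted p = 0.0613).

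Of the genes that promote death, Aen encodes a nuclease that p53 induces and that cuts DNA in dying cells. Its brighter probe was at 1.71, 2.08 and 1.26 on normal diet, at 1.85, 3.06 and 2.02 at 3 weeks, and at 3.89, 3.44 and 3.96 at 7 weeks. The 7 week arrays lay above all others and close together, with an SD of 0.282 against a median of 0.579 over all genes. Aen rose at 7 weeks by 2.08 ± 0.38 against normal diet, or 4.23-fold, and by 1.45 ± 0.38 against 3 weeks (limma, adjusted p = 0.00654 and 0.0171). At 3 weeks it was at 0.63 ± 0.38 (adjusted p = 0.304).

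The other Aen probe was at 0.94, 1.29 and 0.54 on normal diet, at 1.39, 2.46 and 1.54 at 3 weeks, and at 3.28, 2.85 and 3.37 at 7 weeks, in the same order of arrays at 7 weeks. In the fit over all probes it rose by 2.25 ± 0.35 at 7 weeks against normal diet and by 1.37 ± 0.35 against 3 weeks (limma, adjusted p = 0.00427 and 0.0146). The call of Aen against normal diet held without each array in turn (1.87 to 2.28) and ended with normal diet replicate 3 as sole control (2.51, adjusted p = 0.0950). Against 3 weeks the Aen call ended without 3 week replicates 1 and 3 (1.22 and 1.31, limma, adjusted p = 0.0645 and 0.0651) and without scaling (0.49, adjusted p = 0.336).

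Bax encodes the protein that opens the outer mitochondrial membrane in apoptosis, and it moved down and then up. It was at 4.19, 4.60 and 4.27 on normal diet, at 2.83, 3.33 and 3.41 at 3 weeks, and at 5.43, 4.67 and 5.47 at 7 weeks. The groups did not overlap: all 3 week arrays lay below and all 7 week arrays above normal diet. Bax fell at 3 weeks by 1.16 on the log2 scale (SE 0.31, limma, adjusted p = 0.0456) and rose by 2.00 ± 0.31, or 4.0-fold, from 3 to 7 weeks (adjusted p = 0.00182). At 7 weeks it was at 0.84 ± 0.31 against normal diet, short of the threshold (limma, adjusted p = 0.0714), and at 0.04 before scaling.

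The rise of Bax from 3 to 7 weeks passed in all 21 alternatives. Its fall at 3 weeks was lost in 14 of them, with values from -1.27 to -0.91, and did not hold without any 1 of the 3 normal diet arrays (-1.24, -1.04 and -1.20 without replicates 1, 2 and 3) or of the 3 week arrays (-0.98, -1.23 and -1.27). Without 7 week replicate 2, Bax at 7 weeks passed against normal diet (1.10, limma, adjusted p = 0.0316).

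Bbc3 encodes Puma, which frees Bax from its inhibitors. It was at 4.14, 3.96 and 3.63 on normal diet, at 3.91, 3.50 and 3.60 at 3 weeks, and at 7.30, 3.49 and 4.18 at 7 weeks. Only 7 week replicate 1 stood apart, and the other 7 week arrays lay near the remaining groups. The differences of -0.24 ± 0.82, 1.08 ± 0.82 and 1.32 ± 0.82 for 3 weeks, 7 weeks and the step between them did not pass (limma, adjusted p = 0.874, 0.337 and 0.230). Without 7 week replicate 1 the 7 week difference turned to -0.08.

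**Figure D2:**
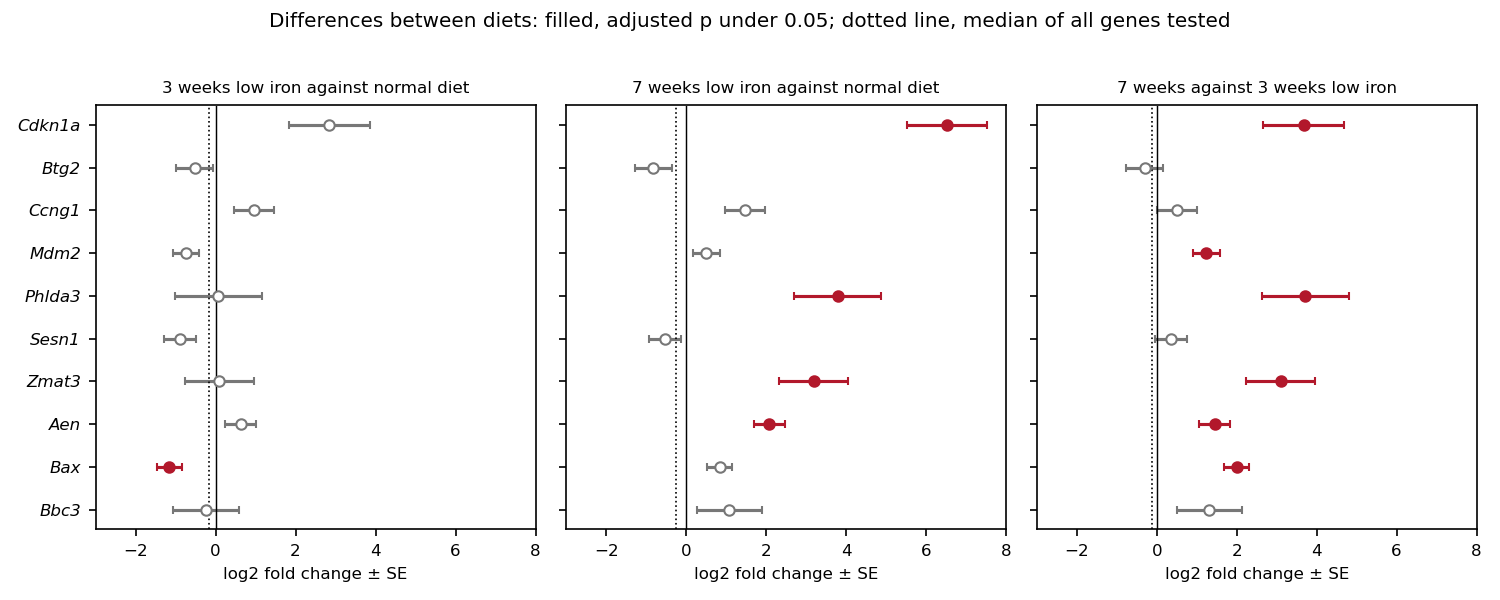
Log2 fold changes of the 10 genes in the 3 comparisons (points, limma estimates; bars, standard errors; filled points pass an adjusted p of 0.05; dotted lines, medians of all genes). Cdkn1a has the highest value at 7 weeks against normal diet, 6.52, and Bax lies at -1.16 at 3 weeks and at 2.00 from 3 to 7 weeks.

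Counted together, 1 of the 10 genes passed at 3 weeks and 4 at 7 weeks. At 3 weeks 0 rose and 1 fell (Bax), where limma called 11.4% of all genes, 3.52% higher and 7.88% lower. At an unadjusted p under 0.05 there were 2. The median of the 10 was -0.09, against -0.17 for all genes. Groups lay apart upwards in 1 gene (Ccng1) and downwards in 4 (Btg2, Mdm2, Sesn1 and Bax), against 18% and 31.6% of all genes. The call of Bax at 3 weeks was the whole count, which was 0 without each normal diet array and without 3 week replicates 1 and 2. Those fits called 1.36% to 3.3% of all genes. Without 3 week replicate 3 the count was 1 again, with Cdkn1a as the gene that passed, and 5.81% of all genes were called. Without 7 week replicate 1 it was 2, with 24.1% of all genes called. With only the 2 groups compared it was 3, all falls (Bax, Mdm2 and Sesn1), where 30.4% of all genes were called.

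At 7 weeks against normal diet 4 of 10 rose (Cdkn1a, Phlda3, Zmat3 and Aen) and 0 fell, where 29.5% of all genes were called, 10.7% higher and 18.7% lower. The median was 1.28, against -0.26 for all genes. Groups lay apart upwards in 5 genes, the 4 that rose and Bax, against 18.1% of all genes, and downwards in 0, against 29.4%. The count was 2 without normal diet replicate 1 or 3 or 7 week replicate 3. These fits called 12%, 14.8% and 30.7% of all genes, in that order. With normal diet replicate 3 as sole control, which leaves 1 array in that group, each of the 4 calls ended, as given above. From 3 to 7 weeks 6 of 10 rose (Cdkn1a, Mdm2, Phlda3, Zmat3, Aen and Bax) and 0 fell, where 37.2% of all genes were called, 17.6% higher and 19.6% lower. The median was 1.39, against -0.13 for all genes, and groups lay apart upwards in 4 of the 10 and downwards in 0, against 23.2% and 25.2% of all genes. This count was 3 without 3 week replicate 1 or 7 week replicate 3, and 2 without 3 week replicate 3. In these fits 27.2%, 35.8% and 24.4% of all genes were called. The comparisons share arrays, so their counts are not independent of each other.

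The order of the 3 arrays within a group was compared between the genes. At 7 weeks replicate 2 had the lowest level of all 10 genes, while 35.1% of all genes were lowest there. Replicate 1 was highest for 8, all but Aen and Bax, against 38.5% of all genes. At 3 weeks replicate 2 was highest for Cdkn1a, Ccng1, Phlda3, Zmat3 and Aen, against 34.2% of all genes, and lowest for Bbc3. Replicate 1 was highest there for 4 genes (27.2% of all genes), and replicate 3 was lowest for 6 (30.8%). On normal diet replicate 3 was lowest for 7 of the 10, against 31.9% of all genes. The genes share these arrays, so these counts describe the 9 arrays and carry no test.

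**Figure D3:**
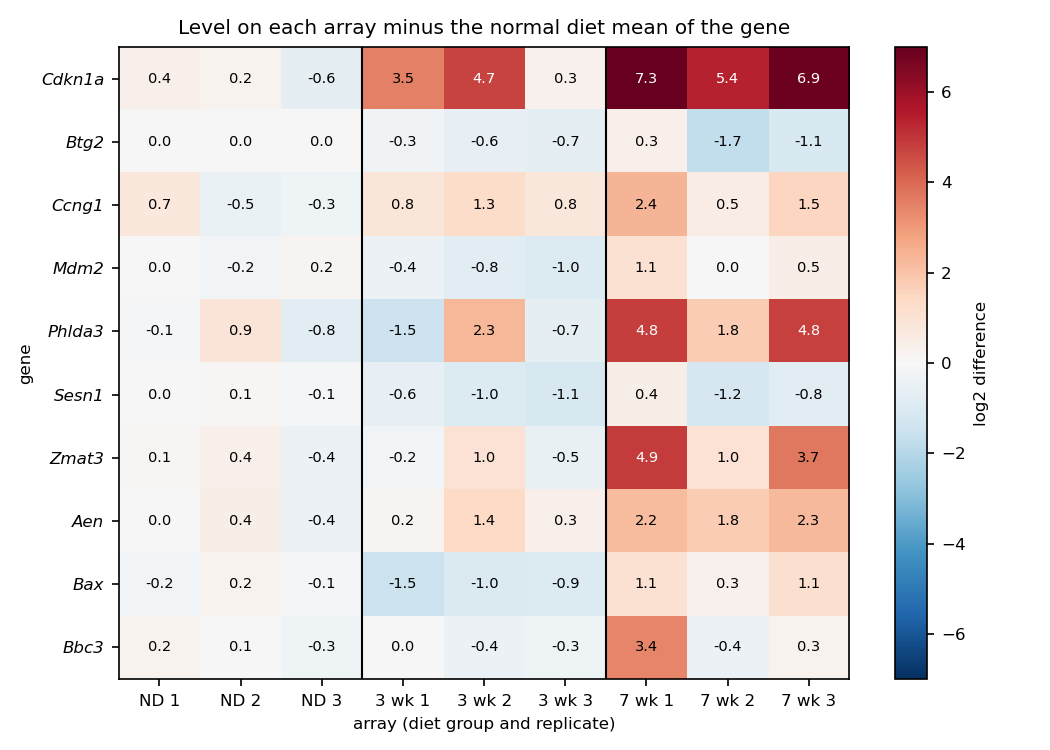
Level of each gene on each array minus its own normal diet mean (colour and printed value, log2; rows, genes by role; columns, arrays). At 7 weeks replicate 2 is the lowest of its group in every row, and Cdkn1a is high on all 3 arrays of that group.

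The regulators of p53 were a list of 16 genes. Trp53, which encodes p53, was at 0.61, -0.26 and -0.20 on normal diet, at -0.87, 0.17 and -0.13 at 3 weeks, and at 1.06, -1.12 and 0.04 at 7 weeks. The 3 groups overlapped throughout. Its differences were -0.33 ± 0.54 at 3 weeks, -0.05 ± 0.54 at 7 weeks and 0.27 ± 0.54 between them (limma, adjusted p = 0.725, 0.948 and 0.722). The sign of its 7 week difference turned without normal diet replicate 1 or 7 week replicate 2 (0.23 and 0.50), and that of the step between 3 and 7 weeks without 3 week replicate 1 or 7 week replicate 1 (-0.02 and -0.26).

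Mdm4, which encodes the partner of Mdm2 that blocks p53 as a transcription factor, was at 1.41 ± 0.98, -0.98 ± 0.98 and -2.39 ± 0.98 for 3 weeks, 7 weeks and the step between them, and did not pass (limma, adjusted p = 0.370, 0.467 and 0.0833). Cdkn2a, the locus of the Mdm2 inhibitor Arf and of the kinase inhibitor p16, was not well above background on any 3 week array. It fell at least 4.64-fold at 3 weeks and rose at least 7.39-fold from 3 to 7 weeks (limma, adjusted p = 0.0415 and 0.00845), where the bound compares the bright group with the dimmest signals that were above background. At 7 weeks, where 2 of 3 arrays were well above background, its level was -5.22, -2.54 and -0.27, and the difference from normal diet was 0.67 ± 1.02 (adjusted p = 0.638). A gene was tested if well above background on all arrays of a group. For Cdkn2a only normal diet met this, so that the choice favoured a fall at 3 weeks. Its 3 week call was lost in 13 of 20 alternatives. Among them were normexp correction, no filter on dim probes and each fit that left out a normal diet or 3 week array. The fitted step from 3 to 7 weeks of 4.55 ± 1.02 was 5.82 without 7 week replicate 1 and 3.35 without replicate 3.

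Over the regulators, 1 rose and 4 fell at 3 weeks, Cdkn2a among the latter. At 7 weeks 2 rose and 2 fell, and from 3 to 7 weeks 5 rose and 2 fell. The shares of all genes called were 3.52%, 10.7% and 17.6% higher and 7.88%, 18.7% and 19.6% lower. Chek2, the checkpoint kinase gene that acts below Atm, rose at 3 weeks (1.01 ± 0.27) and fell at 7 weeks (-1.73 ± 0.27, limma, adjusted p = 0.0452 and 0.00417). Ppm1d, the phosphatase gene that shuts off the damage response and is itself a p53 target, fell at 7 weeks (-2.12 ± 0.41, limma, adjusted p = 0.00755). Rpl11 and Rpl5, ribosomal protein genes whose free products bind Mdm2, rose at 7 weeks (0.96 ± 0.24 and 0.76 ± 0.23, limma, adjusted p = 0.0198 and 0.0354). Without scaling the Rpl11 difference was 0.15 (adjusted p = 0.668) and that of Rpl5 turned to -0.05, and both calls were also lost under quantile normalization. The Rpl11 call at 7 weeks was kept in 15 of 21 alternatives and that of Rpl5 in 8. Leaving out any 1 normal diet or 3 week array ended the Rpl5 call. At 3 weeks Rpl11 fell (-0.89 ± 0.24, limma, adjusted p = 0.0475), as did Atr, the replication stress kinase gene (-1.03 ± 0.24, adjusted p = 0.0293), and the p53 relative Trp73 (-1.27 ± 0.30, adjusted p = 0.0309). Of 21 alternatives, these 3 week calls were lost in 11 for Chek2, 14 for Rpl11, 10 for Atr and 8 for Trp73. For Chek2, Rpl11 and Atr each fit that left out 1 normal diet or 3 week array was among them.

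Other p53 targets of arrest and signalling moved up in part at 7 weeks. Of 13 tested (Plk2 was not), 0 passed at 3 weeks, where their median was 0.80. At 7 weeks 4 rose and 2 fell, with a median of 1.15, and from 3 to 7 weeks 3 rose and 0 fell, with a median of 0.07. In the 3 comparisons 3.52%, 10.7% and 17.6% of all genes were called higher and 7.88%, 18.7% and 19.6% lower. Gadd45g, a stress gene that slows the cycle, was at 3.84, 3.39 and 2.96 on normal diet, 4.01, 4.49 and 3.97 at 3 weeks, and 6.10, 6.05 and 5.99 at 7 weeks. It lay higher in each later group without overlap and rose by 2.65 ± 0.30 at 7 weeks (limma, adjusted p = 0.00171). Gdf15, a stress hormone gene, was at -2.30, -2.17 and -2.24 on normal diet, 3.07, 3.87 and 0.28 at 3 weeks, and 6.23, -0.24 and 1.38 at 7 weeks. All low iron arrays lay above normal diet with a wide spread, and Gdf15 rose at 7 weeks (4.69 ± 1.49, limma, adjusted p = 0.0430) but did not pass at 3 weeks (4.64 ± 1.49, adjusted p = 0.0741). The 7 week call was lost in 9 of 21 alternatives, among them those without any 1 normal diet array, and the value was 2.81 without 7 week replicate 1 and 6.04 without replicate 2. The phosphatase gene Ptpn14 and the kinase gene Plk3 also rose at 7 weeks (3.49 ± 0.71 and 2.12 ± 0.44, limma, adjusted p = 0.00930 and 0.00950). Gtse1, which encodes a protein that binds p53 and p21 late in the cycle, fell (-1.31 ± 0.39, limma, adjusted p = 0.0341; the call was lost in 11 of 21 alternatives), as did Pml by both its probes (-1.09 and -1.93).

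Genes of the cyclins and kinases that p21 acts on, and of the Rb and E2f proteins below them, fell in 9 of 16 cases at 7 weeks. Of the 16 cyclin, kinase, Rb and E2f genes tested (Cdk6 was not), 1 rose and 1 fell at 3 weeks, 1 rose and 9 fell at 7 weeks, and 1 rose and 6 fell from 3 to 7 weeks. Their medians were -0.39, -1.03 and -0.69. Of all genes 3.52%, 10.7% and 17.6% were called higher and 7.88%, 18.7% and 19.6% lower in these comparisons. Ccne2, the cyclin E2 gene of S phase entry, was at 3.26, 2.64 and 2.67 on normal diet, 2.58, 2.03 and 2.73 at 3 weeks, and -2.36, -0.11 and 0.09 at 7 weeks. The 7 week arrays lay far below the rest, and Ccne2 fell by 3.65 on the log2 scale (SE 0.60, limma, adjusted p = 0.00442). Ccnd1, for cyclin D1, fell at least 2.59-fold at 7 weeks (limma, adjusted p = 0.00115), to levels not well above background. Rbl1, for the Rb relative p107, fell by its brighter probe (-2.66 ± 0.51, limma, adjusted p = 0.00706), with -0.87 by the other. The mitotic kinase gene Cdk1 and the Rb relative Rbl2 fell too (-1.45 ± 0.25 and -1.57 ± 0.36, limma, adjusted p = 0.00558 and 0.0130). Ccnd2, for cyclin D2, went the other way on every array, at -0.92, -0.72 and -0.50 on normal diet, 0.76, 1.80 and 1.37 at 3 weeks, and 2.68, 2.86 and 2.95 at 7 weeks. It rose at both times (2.03 ± 0.31 and 3.55 ± 0.31, limma, adjusted p = 0.00987 and 0.000894). E2f4 fell at 3 weeks (-1.79 ± 0.39, limma, adjusted p = 0.0247), a call lost in 7 of 21 alternatives. Among the 9 falls at 7 weeks, those of the genes not named were lost in 6 to 10 of 21 alternatives each.

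Of the other death targets of p53, 10 were tested (Eda2r was not), and 0 passed at 3 weeks, where limma gave 3 an unadjusted p under 0.05, with a median of 0.46. At 7 weeks 0 rose and 2 fell, with a median of -0.91, and from 3 to 7 weeks 0 rose and 5 fell, with a median of -1.66. Of all genes 3.52%, 10.7% and 17.6% were called higher and 7.88%, 18.7% and 19.6% lower in the 3 comparisons. Bid, whose product joins death receptors to Bax, was at 1.33, 0.86 and 0.88 on normal diet, 0.70, 1.13 and 1.60 at 3 weeks, and -3.83, -2.57 and -2.73 at 7 weeks. The 7 week arrays lay far below both other groups, and Bid fell by 4.07 on the log2 scale (SE 0.40, limma, adjusted p = 0.00117), with 2 of those 3 arrays well above background. Apaf1, the apoptosome scaffold gene, fell at 7 weeks against normal diet and against 3 weeks (-1.42 ± 0.47 and -1.57 ± 0.47, limma, adjusted p = 0.0484 and 0.0281), calls that were lost in 12 and 4 of 21 alternatives. Dram1, Ei24 and Pidd1 fell from 3 to 7 weeks (-3.19 ± 0.81, -1.91 ± 0.55 and -1.76 ± 0.42, limma, adjusted p = 0.0146, 0.0240 and 0.0115). Dram1 was well above background on 1 of the 3 arrays at 7 weeks, so that its size rests in part on signals at background, and the calls of Dram1 and Ei24 were lost in 1 and 7 of the alternatives.

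Partners of Bax and Bbc3 in the Bcl2 family and the apoptosome were mixed. Of 11 tested (Bok was not), 0 rose and 1 fell at 3 weeks, 0 rose and 3 fell at 7 weeks, and 4 rose and 2 fell from 3 to 7 weeks, with medians of -0.52, -0.77 and 1.04. Among all genes 3.52%, 10.7% and 17.6% were called higher and 7.88%, 18.7% and 19.6% lower. The killer genes Bik and Bcl2l11 (for Bim) fell at 7 weeks (-1.96 ± 0.48 and -1.96 ± 0.54, limma, adjusted p = 0.0176 and 0.0258), where each was well above background on 1 of 3 arrays, so that the sizes rest in part on signals at background. Both calls were lost without normal diet replicate 1 or 3. Cycs, for cytochrome c, rose from 3 to 7 weeks by its brighter probe (1.67 ± 0.29, limma, adjusted p = 0.00297). In the fit over all probes its other probe was at -1.38 (limma, adjusted p = 0.0594). The Cycs call was lost in 3 of 21 alternatives: quantile normalization, no scaling and the mean over probes. Probes of the survival genes Mcl1 and Bcl2l1 disagreed too. By their brighter probes both rose from 3 to 7 weeks (1.15 ± 0.30 and 1.39 ± 0.48, limma, adjusted p = 0.0166 and 0.0467). In the fit over all probes the other Mcl1 probe fell (-1.35, limma, adjusted p = 0.00361), the other Bcl2l1 probe was at -2.40 (adjusted p = 0.138), and the mean over probes turned both values, to -0.10 and -0.50. The fall at 3 weeks was of Mcl1 by its brighter probe (-1.19 ± 0.30, limma, adjusted p = 0.0370), with the other at 0.25, and was lost in 12 of 21 alternatives.

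The remaining lists held targets of repair and metabolism and relatives of the 10 genes, to be read against the 11.4%, 29.5% and 37.2% of all genes called at 3 weeks, at 7 weeks and between them. Of 11 repair and metabolism genes (Tigar was not tested), 1 rose and 1 fell at 3 weeks, 0 and 0 passed at 7 weeks with 2 at an unadjusted p under 0.05 in limma, and 2 rose and 3 fell from 3 to 7 weeks. Xpc, for DNA damage recognition, rose at 3 weeks (1.68 ± 0.42, limma, adjusted p = 0.0356) and fell from 3 to 7 weeks (-2.42 ± 0.42, adjusted p = 0.00284). The Xpc call at 3 weeks was lost in 8 of 21 alternatives, among them each that left out a normal diet or 3 week array. Of 11 relatives (Phlda2 was not tested), 0 passed at 3 weeks, where 4 had an unadjusted p under 0.05, 0 rose and 1 fell at 7 weeks, and 0 rose and 2 fell from 3 to 7 weeks. The fall at 7 weeks was of Zmat1, at least 5.93-fold by its brighter probe (limma, adjusted p = 0.00130), which was not well above background on any 7 week array. In the fit over all probes the other, dim Zmat1 probe was at 0.01 (limma, adjusted p = 0.994). Cdkn1b and Cdkn1c, which encode the p21 relatives p27 and p57, were at -1.55 ± 0.54 and -0.08 ± 0.54 at 7 weeks (limma, adjusted p = 0.0571 and 0.926).

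Over all 7 lists 88 of 94 genes were tested. At 3 weeks 3 rose and 7 fell, at 7 weeks 7 rose and 19 fell, and from 3 to 7 weeks 15 rose and 20 fell, to be read against the shares of all genes given above. The total of 10 calls at 3 weeks was 1 to 3 when any 1 normal diet or 3 week array was left out and 29 without 7 week replicate 1. Over all genes the share called moved alike, to 1.36% to 5.81% and to 24.1%. The total of 26 at 7 weeks was 14 and 13 without normal diet replicates 1 and 3, where 12% and 14.8% of all genes were called.

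**Figure D4:**
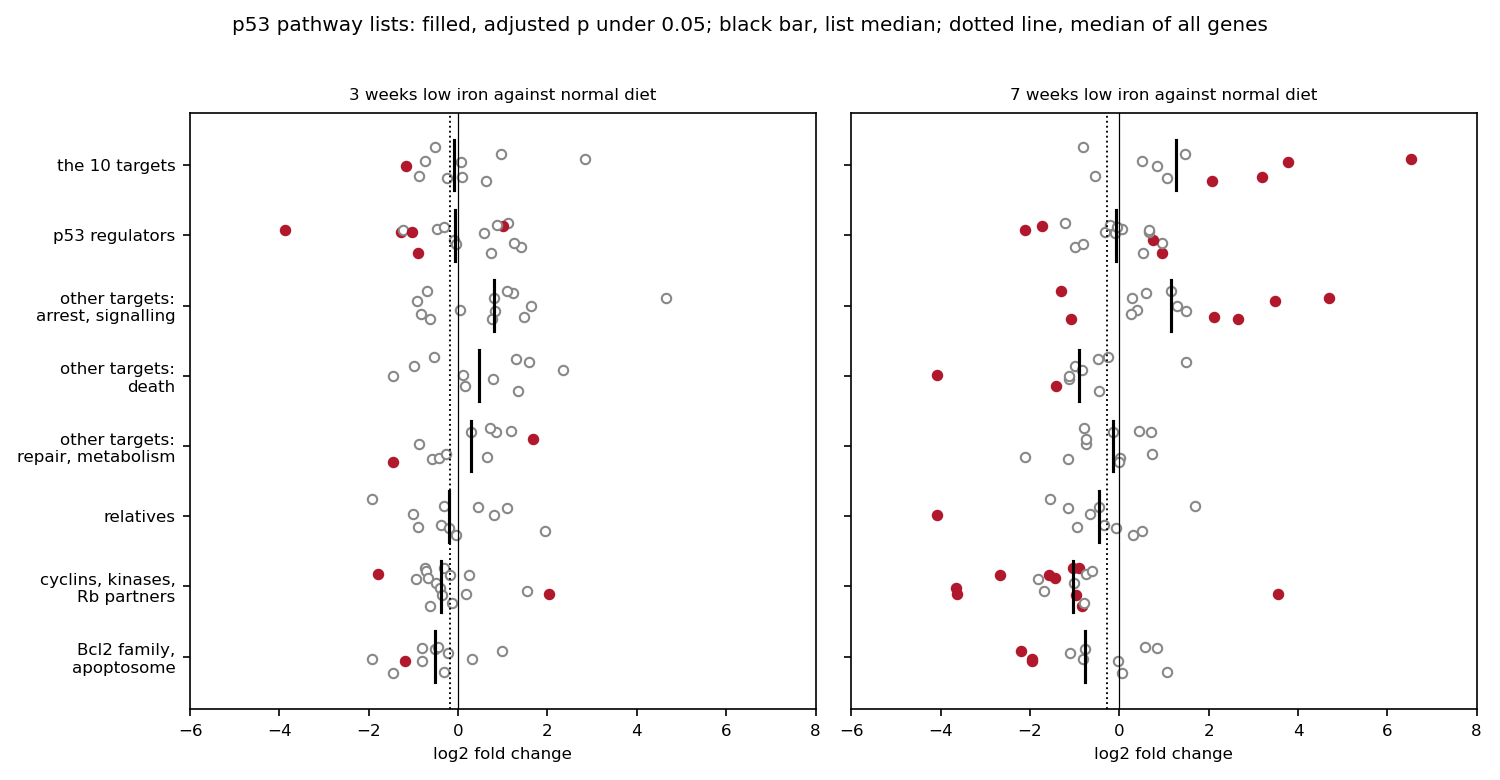
Log2 fold changes of the genes of the 7 pathway lists and of the 10 targets at 3 and at 7 weeks against normal diet (x axis, log2 fold change; points, genes; filled points pass an adjusted p of 0.05; bars, list medians; dotted line, median of all genes). At 7 weeks against normal diet the median is 1.28 for the 10 targets, 1.15 for the other arrest and signalling targets and -1.03 for the cyclin, kinase and Rb genes.

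The genes nearest to Cdkn1a over the 9 arrays, in size of change as well as pattern, were sought among all tested genes. The measure was the root mean square difference of log2 levels, each taken relative to its own normal diet mean. The nearest was Socs3, which encodes a feedback inhibitor of cytokine receptors, at 1.05. After it came Ankrd36 (1.16), the BAFF receptor gene Tnfrsf13c (1.41), the phosphatase gene Ppm1e (1.42), the tubulin gene Tubb3 (1.52), the glucose transporter gene Slc2a1 (1.62), Ndrg4 (1.64) and Erfe, for the erythroblast hormone erythroferrone (1.68). None of the other 9 targets was among these. The measure is not scaled, so a target with smaller changes lies far from Cdkn1a whatever its pattern. The closest were Phlda3 in place 70 (2.49), Zmat3 in place 102 (2.66) and Aen in place 263 (3.04). On 3 week replicate 3, where Cdkn1a lay within normal diet, the 8 genes lay from -1.16 (Ndrg4) to 3.86 (Ppm1e) relative to their normal diet means, with Erfe at 3.62 and the other 5 between 0.86 (Tubb3) and 1.74 (Socs3).

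**Figure D5:**
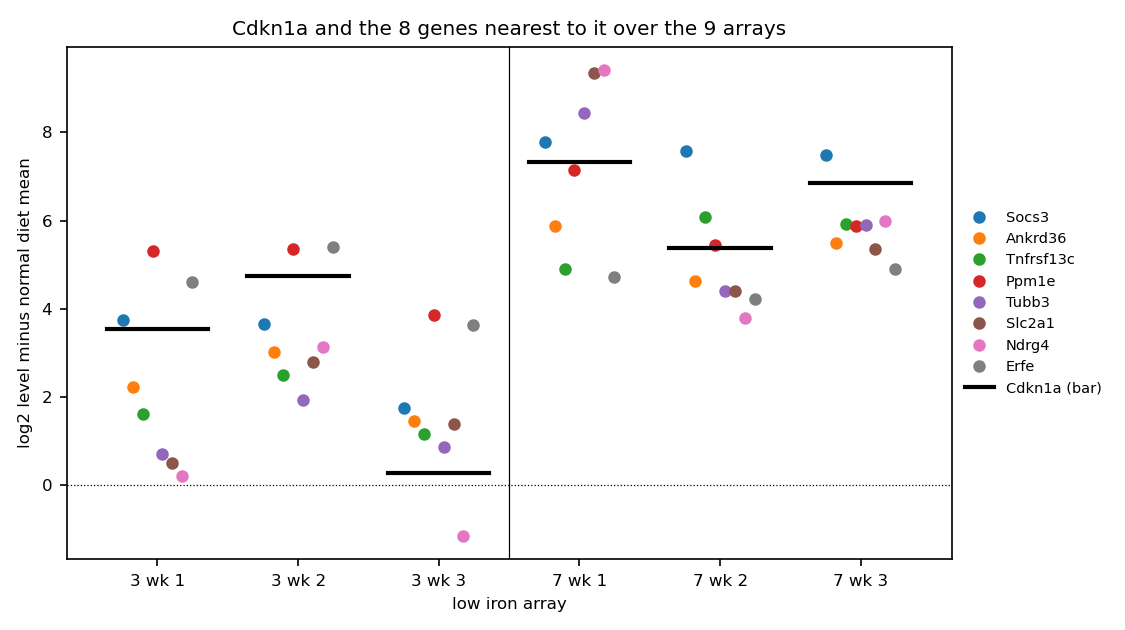
Level of Cdkn1a (bars) and of the 8 genes nearest to it (points) on the 6 low iron arrays, each minus its own normal diet mean (y axis, log2). Socs3 lies between 7.48 and 7.79 on the 7 week arrays, and Ppm1e and Erfe lie well above Cdkn1a on 3 week replicate 3.

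Phlda3 and Zmat3 lay close to each other. Zmat3 was the nearest of all tested genes to Phlda3, at 0.78, followed by Arhgdib (1.01), Padi3 (1.04), Avpi1 (1.05) and Entpd3 (1.05). From Zmat3 the nearest were Snx21 (0.58), Rnf128 (0.64), Avpi1 (0.66), Rundc3a (0.68) and Arhgdib (0.69), with Phlda3 in place 10. Aen, with smaller changes, was nearest to Dcxr (0.31), Galk2 (0.35), Tnfrsf11a (0.35), Rogdi (0.36) and the glycolysis gene Pgam1 (0.37). A gene with small changes has more near neighbours by this measure, so distances of different genes are not comparable.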

How the data were processed

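RNA of sorted erythroblasts was measured on 9 single-colour Agilent arrays, 3 per group. Per the labels' protocols, total RNA was column-purified, amplified and coupled to Cy3. Per the file headers, Agilent Feature Extraction 10.7.3.1 wrote the deposited intensity of each spot, background-subtracted within the array and not scaled between arrays. The deposited series table holds the authors' log2 values of 34922 probes, used as an alternative: by comparison with the scanner values, each probe had been set to a median near 0 over the arrays, and its scaling between arrays is not given in the sources used here. Array medians in it were 0, except -0.02 for 7 week replicate 2.

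The log2 intensity minus the array's 75th percentile was averaged per probe over its spots that carried no outlier mark, and 984 probes without a usable spot on some array were left out. The 62976 spots of an array include 59305 that are no controls and stand for 55681 probes. No spot was saturated, and the number of arrays limits the precision. Probes were named through RefSeq accessions matched to a gene table of GRCm38.p6, used for names only; promoter sequences are RefSeq's of the same assembly. A probe was tested if well above background on all arrays of a group, and the brightest probe stood for a gene. One limma 3.58.1 model (R 4.3.3, lmFit and eBayes) covered the 9 arrays and 3 two-sided contrasts, tested on simulated data first; a further fit covered 34486 probes. Alternatives changed the background correction, scaling, filter, probe choice, weights, block and arrays. Where a group was not well above background, the fold is a bound.

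The genes and lists were chosen with earlier results of these data known. Named are the 10 genes, Trp53, Mdm4, Cdkn2a, at most 6 called genes of a list by size, and nearest neighbours, 8 for Cdkn1a and 5 for other genes called at 7 weeks; Cdkn1b, Cdkn1c and the markers were added for context. A gene of the lists that was called is not reported here. The labels do not say what a shared replicate number means, so the numbers were not taken as pairs. In their deviations from the group means, same-numbered samples correlated at -0.172 to 0.286 and others at -0.266 to 0.245. These ranges do not settle whether samples were paired.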

Additional observations from a re-analysis of the deposited data

Results flagged for a closer look

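For 6 of the 10 p53 targets the change on low iron diet differed between 3 and 7 weeks by a test of that difference. The differences between the times, on the log2 scale, were 3.67 for Cdkn1a, 1.24 for Mdm2, 3.72 for Phlda3, 3.10 for Zmat3, 1.45 for Aen and 2.00 for Bax. Normal diet cancels in these differences. In the same comparison 37.2% of all genes were called. The count was 3 without 3 week replicate 1 or 7 week replicate 3 and 2 without 3 week replicate 3. Those fits called 27.2%, 35.8% and 24.4% of all genes. Whether the time on the diet, the age of the mice or the slide accounts for the differences cannot be told apart, since each group had its own.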

How the results depend on the processing

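There were 21 alternatives. The call of Cdkn1a at 7 weeks was lost in 1 of them, with normal diet replicate 3 as sole control (7.13), that of Aen in the same one, and the rise of Bax from 3 to 7 weeks in none; leaving out each array gave 6.11 to 7.09 for Cdkn1a at 7 weeks, 1.90 to 4.13 at 3 weeks and 2.39 to 4.61 between them. At 3 weeks Cdkn1a passed with array weights (3.10). The planned normexp correction on mean signals was not run, as the files used here hold median signals, on which it was run instead, as chosen after seeing the data. With the replicate number as a block, 4 of the 10 targets were called at 7 weeks, with Ccng1 (1.48) in place of Phlda3 (3.79), and 5 for the step from 3 to 7 weeks, without Phlda3 (3.72).

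At 3 weeks, where 1 target was called, 0 were with quantile normalization, a percentile over probes above background everywhere, no scaling, the series table, no filter, the mean over probes, the replicate block and normal diet replicate 3 as sole control, 5 with array weights and 3 with only the 2 groups compared, fits that called 34.2% and 30.4% of all genes (0 to 2 leaving out arrays). Of the 12 probes, 1 in the reported fit, 0 passed with quantile normalization, that percentile, no scaling, no filter, the block and the single control, 6 with weights and 4 with 2 groups (0 to 2). Pathway genes numbered 16 with normexp, 6 with that percentile, 2 without scaling, 5 without the filter, 43 with weights, 6 with the block, 42 with 2 groups and 0 with the single control (1 to 29). At 7 weeks the single control left 0 targets (2 to 6 leaving out arrays), 0 probes (3 to 8) and 0 pathway genes (13 to 35), which were 44 without scaling and 16 with 2 groups. Without scaling 4 targets rose and 2 fell at 7 weeks (Btg2, -1.62, and Sesn1, -1.34). Of all genes that fit called 48.9% at 7 weeks, 454 higher and 6646 lower. In the step from 3 to 7 weeks it called 52.6%, 826 higher and 6804 lower. With only the 2 groups compared, 19.4% of all genes were called at 7 weeks and 27.5% in the step. For the step, 3 targets passed without scaling, of which 2 rose and 1 fell (Btg2, -1.27), 3 rose with 2 groups and with the single control (2 to 6), and 3 probes passed without scaling (2 to 8).

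These values reversed. At 3 weeks Btg2 was at 0.20 with quantile normalization and Bbc3 at 0.053 with it, at 0.0022 with the other percentile and at 0.040 with the single control; leaving out arrays took Phlda3 from -1.07 to 0.83 and Zmat3 from -0.38 to 0.40. At 7 weeks Mdm2 was at -0.30 and Rpl5 at -0.049 without scaling, and Trp53 at 0.055 with normexp, 0.26 with the other percentile and 0.19 with the single control (-0.59 to 0.50 leaving out arrays), while leaving out arrays took Bbc3 from -0.078 to 1.83. For the step it took Btg2 from -0.88 to 0.15, Sesn1 from -0.12 to 0.69 and Trp53 from -0.26 to 0.83; no scaling gave -0.45 for Ccng1, -0.61 for Sesn1, -0.69 for Trp53, -0.11 for Rpl5 and -0.24 for Atr; quantile normalization gave -0.18 for Sesn1, -0.14 for Gpx1 and -0.35 for Rpl5; the mean over probes gave -0.50 for Bcl2l1 and -0.10 for Mcl1. The cause of each was not tested. Phlda3, Zmat3 and the normal diet level of Cdkn1a are dim, which limits their precision.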
